A study of Danio rerio with 6 samples.

Results

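A set of 8 genes, listed together for the black pigment cell and melanin synthesis, was followed in RNA-seq libraries of zebrafish (Danio rerio) cells. Its genes were picked by Ensembl identifier from a table of 27726 genes. They are mitfa (ENSDARG00000003732), kita (ENSDARG00000043317), tyr (ENSDARG00000039077), dct (ENSDARG00000006008), tyrp1b (ENSDARG00000056151), slc24a5 (ENSDARG00000024771), slc45a2 (ENSDARG00000002593) and the pmel row ENSDARG00000033760. The list behind the choice calls this last identifier pmela. The gene table at hand names it pmelb and gives the name pmela to ENSDARG00000091298, so ENSDARG00000033760 is called pmelb here, and pmela, which is not one of the 8, is given beside it. The table gives human-style symbols to the other 7 (MITF, KIT, TYR, DCT, TYRP1, SLC24A5 and SLC45A2). It uses MITF and TYRP1 for 2 identifiers each, so the paralog letters a and b of mitfa, kita and tyrp1b rest on the list.

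The libraries were made from cells sorted for the fluorescent reporter sox10:dsRed at 6 days post fertilization. The 3 wild-type libraries came from WT larvae and the 3 mutant libraries from larvae labelled Shoc2-/-, a CRISPR/Cas9 mutant of shoc2 whose sample titles read D22. Both groups carried the reporter and were sorted in the same way. Shoc2 is a scaffold protein that promotes RAF activation in the RAS-ERK pathway, and the design asked what changes in these cells when it is lost. How many larvae went into a library is not given in the sources used here, and nothing says that replicates came from separate clutches, so p-values measure the spread between these libraries.

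Melanophores, the black pigment cells of fish, come from the neural crest, whose cells express sox10 early on. The transcription factor Mitfa sets their fate, and in zebrafish the receptor Kita is needed for their migration and survival. Melanin is then made inside melanosomes, where tyrosinase carries out the first steps from tyrosine, Dct and Tyrp1 act on later intermediates, Pmel forms the fibrils on which pigment is laid down, and transporters such as Slc24a5 and Slc45a2 keep the organelle's ion balance. The retinal pigment epithelium of the eye, which does not come from the neural crest, makes melanin with many of the same genes.

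Gene-assigned reads per library numbered from 20088591 to 21802683. Values are normalized counts, that is, the authors' read counts divided by 1 factor per library. The transcript of shoc2 itself (SHOC2, ENSDARG00000040853) stood at 1194, 959 and 1083 normalized counts in wild type and at 844, 798 and 673 in mutants. The genotypes did not overlap there, but the difference, -0.48 on the log2 scale (SE 0.148), did not pass the test used throughout (limma, adjusted p = 0.636). The sorting marker sox10 (SOX10, ENSDARG00000077467) was present at 8573 to 25782 normalized counts in wild type and 13953 to 30211 in mutants. All 8 pigment genes were read in all 6 libraries, with at least 135 reads each.

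None of the 8 genes passed the test between genotypes. In 7 of the 8 the mean was higher in mutants, by factors from 1.18 (dct) to 1.61 (tyrp1b), and for pmelb it was lower. This came mainly from mutant replicates 1 and 3, while mutant replicate 2 lay within the wild-type range for each of the 7 except kita. Both of these mutant libraries were also among those with more gene-assigned reads, so read totals and mutation were partly mixed. The totals lay close together, from 20088591 to 21802683, and the values compared were already normalized for each library. The part of other cells that make melanin was not tested. In sorted bulk cells, more melanophores and more RNA per melanophore could not be told apart either, and no rise passed the test.

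**Figure D1:**
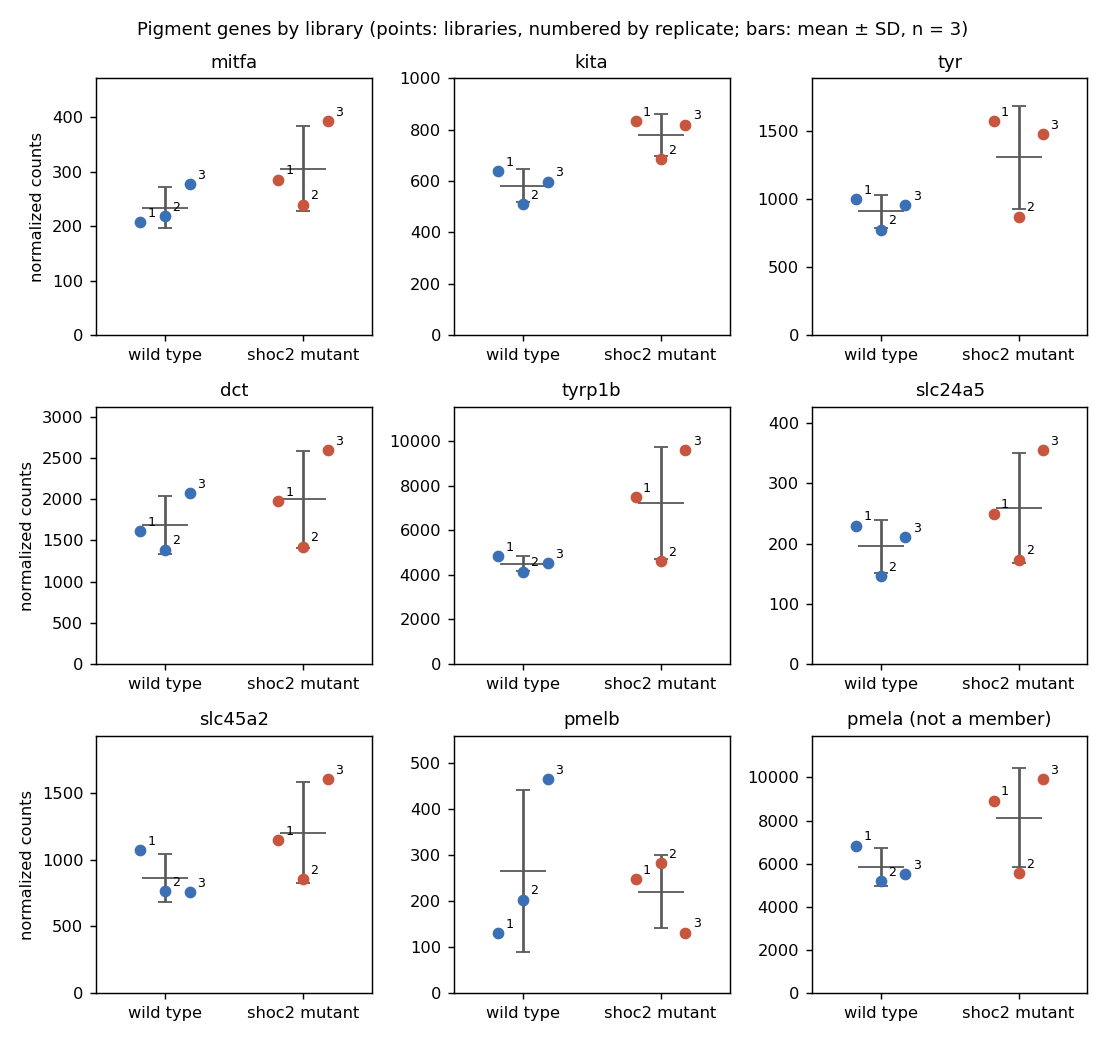
Normalized counts (vertical axes, linear, from 0) of the 8 pigment genes and of pmela in each library, by genotype. Points are libraries numbered by replicate, and bars are mean ± SD (n = 3). Mutant replicates 1 and 3 lie at or near the top in every panel except pmelb, and mutant replicate 2 lies within the wild-type range except for kita.

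The regulator and the receptor were taken first. For mitfa, the wild-type libraries had 207, 219 and 277 normalized counts and the mutant libraries 285, 239 and 392. Mutant replicate 2 fell below wild-type replicate 3, so the genotypes overlapped. Wild type averaged 234 ± 37.6 and mutants 306 ± 78.6 (SD, n = 3 each), a log2 fold change of 0.36 (SE 0.227; limma adjusted p = 0.95).

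For kita, wild-type libraries had 638, 511 and 598 normalized counts and mutant libraries 833, 685 and 819. All 3 mutant values lay above all 3 wild-type values, and kita was the only one of the 8 genes for which this held. Means were 582 ± 64.8 and 779 ± 82.1 (SD, n = 3 each), and the fitted log2 difference was 0.42 (SE 0.152). Its unadjusted limma p was 0.0219 and its adjusted p, over all 20463 genes tested, was 0.749. Kita had the smallest standard error of the 8 genes.

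Among the melanin enzymes, tyrosinase (tyr) had 996, 773 and 954 normalized counts in wild type and 1568, 869 and 1474 in mutants. Mutant replicates 1 and 3 were above every wild-type library, and replicate 2 was below 2 of them. On the log2 scale mutants were 0.48 above wild type (SE 0.227; limma adjusted p = 0.874).

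The gene tyrp1b had the largest estimated difference of the 8. Its values were 4834, 4156 and 4533 normalized counts in wild type and 7497, 4614 and 9611 in mutants. The wild-type libraries lay close together, with an SD of 340 around a mean of 4508, while the mutant SD was 2508 around a mean of 7241. Mutant replicate 2 lay inside the wild-type range. Its fitted log2 difference was 0.62 (SE 0.235), with an unadjusted p of 0.0266 and an adjusted p of 0.779 in limma. Leaving out mutant replicate 2 raised it to 0.92 and leaving out mutant replicate 3 lowered it to 0.39.

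For dct, which encodes dopachrome tautomerase, wild-type libraries had 1609, 1389 and 2071 normalized counts and mutant libraries 1978, 1424 and 2597. Wild-type replicate 3 was above mutant replicates 1 and 2, and the ranges overlapped widely. Its log2 fold change of 0.22 (SE 0.228; limma adjusted p = 0.965) shrank to 0.01 without mutant replicate 3.

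Both transporters followed the same order of libraries at the top. Counts of slc24a5, a sodium/calcium exchanger whose loss gives the pale golden fish, were 230, 146 and 210 in wild type and 249, 173 and 355 in mutants after normalization. The log2 fold change was 0.37 (SE 0.291; limma adjusted p = 0.96). For slc45a2, the gene of the zebrafish albino mutant, values were 1073, 763 and 756 normalized counts in wild type and 1149, 853 and 1607 in mutants (log2 fold change 0.45, SE 0.238; limma adjusted p = 0.911). In both genes wild-type replicate 1 came next, above mutant replicate 2. Without mutant replicate 3 the log2 fold changes fell to 0.12 for slc24a5 and 0.22 for slc45a2.

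The melanosome matrix gene among the 8, pmelb, went its own way. Whether this row was read from melanophores was not tested. It had 130, 203 and 465 normalized counts in wild type and 248, 282 and 130 in mutants. The highest library was wild-type replicate 3 and the lowest were wild-type replicate 1 and mutant replicate 3, so the wild-type libraries spanned the whole range and the mutant libraries lay inside it. Highest and lowest differed 3.58-fold, against between 1.63-fold and 2.44-fold for the other 7 genes. The log2 fold change was -0.14 (SE 0.457, limma adjusted p = 0.99). It turned positive without wild-type replicate 3 (0.36) and without mutant replicate 3 (0.20), so leaving out either library changed its sign. Depth class as a covariate did so too (0.17).

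The row named pmela behaved like the other 7 genes and not like pmelb. It had 6831, 5193 and 5505 normalized counts in wild type and 8930, 5553 and 9928 in mutants, again with mutant replicates 1 and 3 on top. Its log2 fold change was 0.44 (SE 0.215; limma adjusted p = 0.893). With pmela counted in place of pmelb, a swap made after the values were seen, all 8 differences were positive and still none passed.

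**Figure D2:**
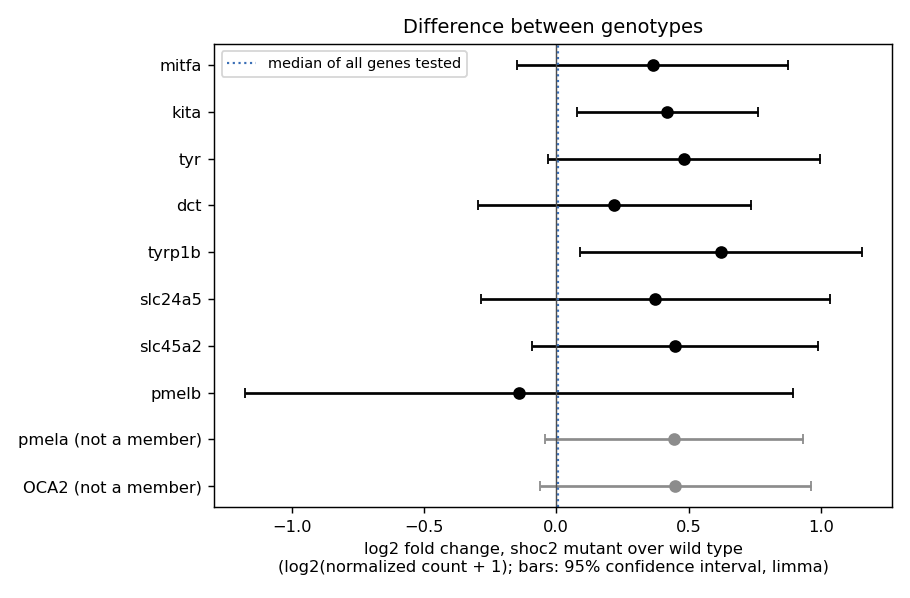
Log2 fold change of mutant over wild type on the log2(normalized count + 1) scale (horizontal axis) for the 8 pigment genes in black and for pmela and OCA2 in grey. Points are limma estimates and bars their 95% confidence intervals. Only the intervals of kita and tyrp1b lie wholly above 0, and the dotted line marks the median of all genes tested, 0.0078.

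Taken over all 8 genes, the median log2 fold change was 0.40, beside 0.0078 over all genes tested. In 2 of the 8, kita and tyrp1b, limma gave an unadjusted p under 0.05 with the higher level in mutants, where 2.88% of all genes tested met the same rule. This count rested on single libraries. It was 0 without wild-type replicate 2, mutant replicate 1 or mutant replicate 3 (1160, 1321 and 1121 of 20463 genes in either direction). It was 1 without wild-type replicate 3 (965 genes), 3 without wild-type replicate 1 (1560) and 4 without mutant replicate 2 (921). For 1 of 8 all mutant values were above all wild-type values, against 5.29% of all genes tested. Without mutant replicate 2 this became 6 of 8, against 8.92% of all genes. That library had been seen inside the wild-type range for most of the 8, so its removal largely fixed this count in advance. Its removal also favoured the count of 4 at an unadjusted p under 0.05. The count was 3 without wild-type replicate 1 (2493 of 20463 genes) and 2 without wild-type replicate 3 (1825 genes). It was 1 without wild-type replicate 2, mutant replicate 1 or mutant replicate 3 (2374, 2113 and 2303 genes). At an adjusted p under 0.05, limma called 0 of the 8 and 0.00489% of all genes, which is 1 gene, lower in mutants. Count tests on the reads recovered from the table also called none of the 8. With edgeR's quasi-likelihood test 0 of 8 had an adjusted p under 0.05, where it called 0% of all genes; unadjusted, 3 of 8 were under 0.05 and higher in mutants, as were 2.73% of all genes. DESeq2 also called 0 of 8, where 0.23% of all genes were called higher in mutants; unadjusted, the figures were 3 of 8 and 3.04%. The lowest adjusted p of any of the 8 in DESeq2 was 0.33, for tyrp1b.

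The 95% confidence intervals show what size of change these libraries leave possible. The interval for tyrp1b ran from 0.09 to 1.15 on the log2 scale and that for kita from 0.08 to 0.76. The other 6 intervals included 0. For dct the interval was -0.30 to 0.74, which left a moderate rise possible but only a small fall. For pmelb it was -1.18 to 0.89, which left sizeable changes possible in both directions. A doubling, 1 on this scale, lay inside the intervals of tyrp1b and slc24a5 (-0.29 to 1.03) and above those of the other 6. For tyr and slc45a2 it lay only just above, with upper limits of 0.997 and 0.988. The intervals are per gene and not adjusted for the number of genes tested.

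How the genes varied together was described by centring each gene's log2 value on its own mean over the 6 libraries. Averaged over the 7 genes other than pmelb, the libraries stood at -0.10, -0.41 and -0.12 in wild type and at 0.28, -0.22 and 0.58 in mutants. Mutant replicate 3 was among the 2 highest libraries for all 7 genes, and mutant replicate 1 for 6 of them, the exception being dct. Wild-type replicate 2 was the lowest library for 5 of the 8. The 8 genes together took 0.0468%, 0.0385% and 0.0485% of all reads in wild type and 0.0655%, 0.0442% and 0.0838% in mutants. The most abundant was tyrp1b, with means of 4508 normalized counts in wild type and 7241 in mutants. The next, dct, had means of 1690 and 2000, so this share speaks mainly of tyrp1b. The mean share was 0.0446% ± 0.0054 in wild type and 0.0645% ± 0.0198 in mutants (SD, n = 3 each), and mutant replicate 2 lay inside the wild-type range.

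**Figure D3:**
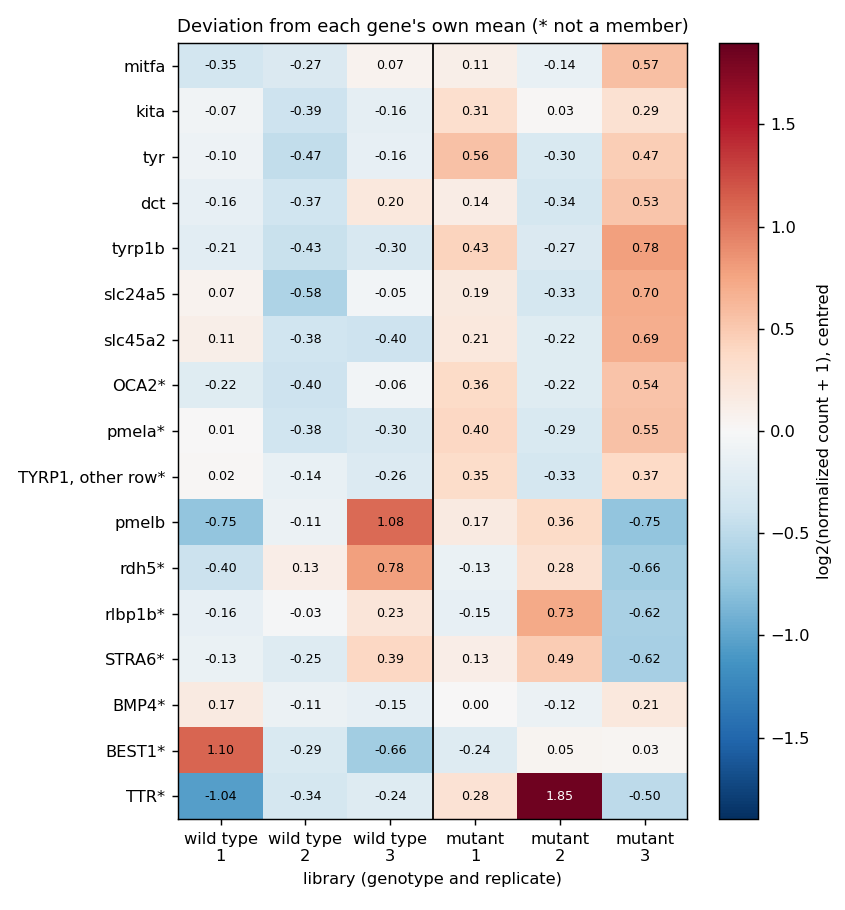
Each cell gives the log2(normalized count + 1) of a gene in 1 library minus that gene's mean over the 6 libraries (colour and printed value), with wild-type libraries left of the line and mutants right. Rows from mitfa to the second TYRP1 row are highest in mutant replicates 1 and 3, except dct, for which wild-type replicate 3 comes second, while pmelb is high in wild-type replicate 3 and low in mutant replicate 3. Of the 6 matched genes of the retinal pigment epithelium list (rdh5 to TTR), 3 are lowest in mutant replicate 3 and BMP4 is highest there. Asterisks mark genes outside the 8.

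Ratios to mitfa within a library were taken next, since a factor common to both genes cancels in them. The number of pigment cells would be such a factor only if both genes were read from the same cells alone. That was not tested, so the ratios are given as a description. For tyrp1b the ratio was 23.4, 19.0 and 16.4 in wild type and 26.3, 19.3 and 24.5 in mutants. For dct it was 7.78, 6.36 and 7.48 in wild type and 6.94, 5.95 and 6.62 in mutants, and for kita 3.08, 2.34 and 2.16 against 2.92, 2.86 and 2.09. The genotypes overlapped in all 7 ratios. The exact two-sided permutation p ranged from 0.2 to 1 over the 7, where the smallest that 3 against 3 libraries allow is 0.1. Ratios set different genes side by side without correction for transcript length, so only their change between libraries can be read.

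Genes with a library pattern most like the 8 were found by the root mean square difference between centred log2 profiles over the 6 libraries, among 10022 genes that varied at least as much as the mean profile of the 8. The closest were ADORA2A (ENSDARG00000033706), at a difference of 0.0569, USP30 (ENSDARG00000056842) at 0.0811 and OCA2 (ENSDARG00000061303) at 0.0825, followed by rcan1a (ENSDARG00000003109) and ABHD8 (ENSDARG00000076620). OCA2 encodes a melanosome membrane protein needed for melanin synthesis. It had 246, 219 and 277 normalized counts in wild type and 370, 246 and 418 in mutants, with a fitted log2 difference of 0.45 (SE 0.226; limma adjusted p = 0.905). ADORA2A and USP30 were low, at 26.4 to 77.4 normalized counts per library, so counting error is a larger part of their profiles.

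Other genes linked to melanophores, not all of them particular to these cells, were taken from a list of 16. Of these, 11 could be matched to 1 identifier each, and 1 of the 11 is pmelb, which leaves 10. In limma 0 of the 10 passed the adjusted threshold in either direction, and the median log2 fold change was 0.17. An unadjusted p under 0.05 was found for 2, both higher in mutants, where 2.88% of all genes tested met the same rule. The 4 most abundant, TFAP2A, AP3D1, trpm1b and kitlga, had log2 fold changes of 0.00 (SE 0.17), 0.17 (SE 0.116), -0.11 (SE 0.2) and -0.37 (SE 0.181). TFAP2A is a transcription factor of neural crest and skin, and kitlga encodes the ligand of Kita. The 2 with a low unadjusted p were picked out after their values were seen. TFAP2E, a transcription factor related to TFAP2A, had 438, 478 and 400 normalized counts in wild type and 823, 635 and 765 in mutants, without overlap. Mutants were 0.75 higher on the log2 scale (SE 0.156), with adjusted p-values of 0.336 (limma) and 0.00954 (DESeq2). Of all genes tested, 5.29% had mutants above wild type without overlap, and DESeq2 called 0.23% higher in mutants. GPR143, a melanosome receptor, had 124, 122 and 102 normalized counts in wild type and 185, 145 and 202 in mutants (log2 fold change 0.60, SE 0.221; adjusted p 0.763 in limma).

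Paralogs of the 8 were read beside them. The second row named TYRP1 (ENSDARG00000029204) had 1056, 942 and 865 normalized counts in wild type and 1322, 824 and 1345 in mutants (log2 fold change 0.26, SE 0.2; limma adjusted p = 0.96). The second row named MITF (ENSDARG00000037833) stood at 15.8 to 64.4 normalized counts in wild type and 38.7 to 92.4 in mutants and was highest in mutant replicate 2, unlike mitfa. Values of kitb were 305, 159 and 295 in wild type and 229, 237 and 364 in mutants. Reads that fit both copies of such a pair may have been split or dropped, since the counting options are not given in the sources used here.

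Markers of other cell types also differed between libraries, and their part in the values above was not tested. Of the retinal pigment epithelium list, 6 of 10 genes were matched, and none was at 0. They summed to 1552 to 1847 normalized counts in wild type and 1653 to 1803 in mutants. Most of this was BMP4, at 1050 to 1311 in wild type and 1074 to 1345 in mutants. The sum therefore says little about the other matched genes, of which rlbp1b, STRA6 and rdh5 were lowest in mutant replicate 3. For iridophores, the silvery pigment cells, 5 of 10 were matched, at 1981 to 3656 in wild type and 1972 to 2817 in mutants. Most of this was ltk and FOXD3, and FOXD3 was also in the neural crest and glia lists. The iridophore gene pnp4a had 118 to 162 in wild type and 97.7 to 185 in mutants. For xanthophores, the yellow ones, 8 of 10 gave 1462 to 2692 and 1700 to 2165. These 3 lists overlapped between genotypes. So did neural crest genes (7 of 10), at 15543 to 33642 in wild type and 20358 to 37345 in mutants. Most of that sum was the sorting marker SOX10, at 8573 to 25782 in wild type and 13953 to 30211 in mutants. Glial genes (9 of 10) overlapped too, at 22995 to 63447 and 26017 to 59814. The cell type lists that did not overlap were cartilage and leukocytes. Cartilage genes (5 of 10) had 73065 to 112803 in wild type and 138557 to 185264 in mutants. Leukocyte genes (8 of 10) had 2749 to 6003 in wild type and 1127 to 2442 in mutants. Of the leukocyte genes, b2m, cd74a and cd74b carried that gap in the sum. The other 5, split off after the values were seen, summed to 1473 to 2885 in wild type and 928 to 2152 in mutants and overlapped. Taken singly, only lck among these 5 did not overlap (80.8, 52.8 and 114 in wild type, 17.4, 49.3 and 28.0 in mutants). Among all 20463 genes tested, 2163 did not overlap, 1082 of them higher in mutants. Keratinocyte genes (8 of 10) summed to 69666 to 203354 normalized counts in wild type and 60803 to 96297 in mutants, with wild-type replicate 2 highest, the library in which 5 of the 8 pigment genes were lowest. Skeletal muscle genes (6 of 10) ran from 5693 to 37281 and from 10298 to 76506.

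Gene-assigned reads per library, called depth here, went together with the mean of the 7 genes other than pmelb. With the mean of all 8 they did so only in part. The totals lay close together, from 20088591 to 21802683, and the values compared were already normalized for each library. Wild-type replicate 1 and mutant replicates 1 and 3 were the deeper libraries, with at least 21575563 reads, and the other 3 had at most 20152291. Over the centred log2 values of the 8 genes, mutant replicates 1 and 3 averaged 0.26 and 0.41. Wild-type replicate 1 averaged -0.18, below the shallower wild-type replicate 3 (0.035) and mutant replicate 2 (-0.15). Without pmelb it averaged -0.10, above them (-0.12 and -0.22), though only just above wild-type replicate 3. All deeper libraries then stood above all shallower ones. The deeper class held 2 mutant libraries and 1 wild-type library, so depth and mutation were partly mixed. Within the deeper class the log2 difference of mutant minus wild type was positive for all 8 genes, with a median of 0.48 (2 mutant libraries against 1). Within the shallower class it was positive for 4 of 8, with a median of 0.00 (1 mutant library against 2). With depth class as a covariate the median log2 fold change of the 8 genes was 0.28 instead of 0.40. With 1 library against 2, no test was run within a class.

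**Figure D4:**
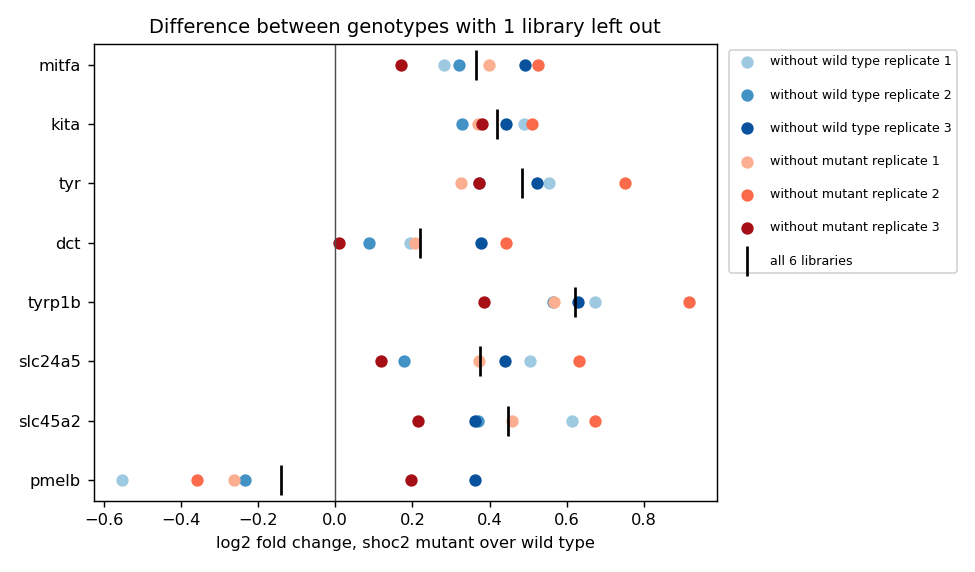
Log2 fold change of mutant over wild type (horizontal axis) for each of the 8 genes with all 6 libraries (vertical bars) and with 1 library left out (points, coloured by the library removed). All genes except pmelb stay above 0 in the 6 cases and are highest without mutant replicate 2, while pmelb crosses 0.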

How the data were processed

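RNA-seq was measured in 3 wild-type and 3 shoc2 mutant libraries. The submitters' processing notes list FastQC 0.11.7, STAR 2.6, Cuffnorm and the build GRCz11, with no role or order. The deposited table holds normalized counts (a signal; its name says HTSeq) made by the authors. The normalization method, annotation and strand setting are not given in the sources used here. In each column 100% of the values were whole multiples of 1 step, within 0.001 reads, so whole reads were recovered for the count tests.

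The genes followed and all lists were chosen with earlier results of these data known. A gene table named 25324 of 27726 identifiers, with all 8 pigment genes among them. List symbols were matched without regard to case, and only to a single identifier. All 8 genes are named whatever their values, as are shoc2 and sox10, the 5 genes most like the 8, and the 4 most abundant genes of the melanophore list; other names were chosen after their values were seen.

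Values were compared as log2(normalized count + 1) with limma 3.58.1 (mean-variance trend, no covariates, R 4.3.3) on 20463 genes with at least 10 normalized counts in at least 3 libraries. Benjamini-Hochberg adjustment ran over all of these, at a threshold of 0.05. This scale understates the change of low genes. Alternatives included edgeR 4.0.16 (quasi-likelihood test) and DESeq2 1.42.0. Tests were tried on simulated data with known changes. Replicate numbers were not taken as pairs, since same-numbered libraries had correlations of deviations of -0.202, -0.029 and -0.092. No library repeated another (chi-square of their counts divided by its degrees of freedom: 27.2 or more in all 15 pairs).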

Additional observations from a re-analysis of the deposited data

How the results depend on the processing

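The count of the 8 genes past an adjusted p of 0.05 was 0 under all 18 alternatives run, and the lowest adjusted p of any of the 8 was 0.281 (tyrp1b, limma, without mutant replicate 2). The 7 genes other than pmelb kept a positive difference under the 17 alternatives run for each. For pmelb it turned positive in 3: 0.17 with depth class as a covariate, 0.36 without wild-type replicate 3 and 0.20 without mutant replicate 3, within a range of -0.55 to 0.36 when single libraries were dropped. Dropping single libraries moved the median log2 fold change of the 8 between 0.21 and 0.58. The number of the 8 genes without overlap, 1 with all libraries, was between 1 and 6 in such fits. It was 6 without mutant replicate 2, where 8.92% of all genes had mutants above wild type without overlap (5.29% with all libraries). Mutant replicate 2 was the library that overlapped wild type, so the 6 was largely fixed in advance. At an unadjusted p under 0.05, the count of the 8 was 2 in limma. It was 1 with depth class as a covariate and 1 without the variance trend. When single libraries were dropped it was between 0 and 4, where 921 to 1560 of all genes were under 0.05. The 4 came without mutant replicate 2, whose removal favoured it. Over all genes, 1 passed in limma; this became 3 with no filter on low values, 0 without the variance trend (1227 unadjusted), 0 in edgeR (1232 unadjusted), 155 in DESeq2, 0 with depth class as a covariate (1164 unadjusted), and 0 to 4 with a library left out. With the replicate number as a block it was 0 (906 unadjusted), and of the 8 genes 0 passed with the block and 3 were under 0.05 unadjusted. For these changes the cause was not tested. Depth did not leave any of the 8 genes unread; the number of libraries limits the precision.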

Other observations

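When the mean profile of the 7 genes other than pmelb was compared with the 7854 remaining genes that varied at least as much, a comparison added after the values were seen, the closest was OCA2 (root mean square difference 0.0682) and the next was pmela (0.106). Neither is among the 7, and both act in melanosomes. Then came rcan1a, uts2r1, ADRA1A and ST6GALNAC4, at 0.118 to 0.126. By the same measure kitb was at rank 192 and the second MITF row at rank 5673.

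The genes closest to pmelb, among 2384 that varied at least as much, were si:ch211-153b23.4 (0.134), fndc7rs4 (0.156) and SLC24A4 (0.185). The 5 tested genes of the retinal pigment epithelium list varied less than pmelb and were outside that comparison, and TTR, the other matched gene, was below the filter on low values. These genes did not share 1 library pattern. rdh5, a visual cycle enzyme, had 77.9, 113 and 178 normalized counts in wild type and 94.8, 126 and 65.2 in mutants, highest in wild-type replicate 3 as pmelb was, and rlbp1b and STRA6 were likewise lowest in mutant replicate 3. BMP4 was highest in mutant replicate 3, at 1345 normalized counts, and BEST1 was lowest in wild-type replicate 3, at 50.5. The 3 rows named RPE65 also differed among themselves. ENSDARG00000007480 was highest in wild-type replicate 3 (1742 normalized counts), ENSDARG00000094752 was highest in wild-type replicate 1 (605) and lowest in wild-type replicate 3 (353), and ENSDARG00000054420 was highest in wild-type replicate 2 (232) and lowest in mutant replicate 2 (87.3).

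The melanocortin list had 6 of 9 genes matched and none past the adjusted threshold in limma (2 unadjusted, 1 in each direction). Its matched agouti family genes were asip2b and agrp, while asip1 was listed but not matched. asip2b had 2139, 2655 and 1897 normalized counts in wild type and 1724, 1510 and 1698 in mutants, without overlap (log2 fold change -0.43, SE 0.148; limma adjusted p = 0.726). The level of agrp was low and overlapped between genotypes, at 8.09 to 11.5 normalized counts in wild type and 1.93 to 26.7 in mutants. The melanocortin receptor accessory gene mrap2a was also low. It was higher in all 3 mutant libraries (12.3 to 24.2) than in wild type (3.17 to 11.5), with a limma adjusted p of 0.82. Its highest wild-type library and its lowest mutant library both had 12 reads, so the gap came from the scaling of libraries. The sprouty genes of the ERK target list, SPRY2 and SPRY4, which encode feedback inhibitors of RAS-ERK signalling, were lower in all 3 mutant libraries than in all 3 wild-type ones (log2 fold changes -0.56, SE 0.114, and -0.53, SE 0.114). They passed in DESeq2 (adjusted p 0.0155 and 0.0269) and not in limma (0.318 and 0.367). Of the 8 ERK target genes matched out of 10, these 2 passed in DESeq2, where 108 of all 20463 genes passed as lower in mutants. In limma 0 passed and 3 had an unadjusted p under 0.05, all lower in mutants. Over all genes 1186 were under 0.05 in either direction, 590 of them higher in mutants. Beside the sprouty genes the third was egr1 (log2 fold change -0.36, SE 0.135). Both egr1 and SPRED1 were also lower in mutants without overlap, and the rest of the matched list overlapped. Among all 20463 genes 2163 did not overlap, 1082 of them higher in mutants. DUSP6 had a log2 fold change of 0.01 (SE 0.149).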
